A study of Ovis aries with 40 samples.

Results

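Complement genes were followed through lung development in sheep with and without *CFTR*, the chloride channel gene mutated in cystic fibrosis (CF). The genes were C1QA, C1QB, C1QC, C3, CFB, CFD, CFI, C7 and LOC101123672, which the study annotated as C4A. They were taken by gene name and are 9 of the 24478 genes in the count tables. All 9 passed the filter on low counts in every comparison. Bulk RNA from proximal and distal lung was sequenced from WT and CF American Romney sheep of 65, 80, 100 and 120 days of gestation and of term, here entered as day 147, with 2 libraries for each of 20 groups and 40 libraries in all. WT animals were conceived by breeding and carried no edit, and the WT term animals were born naturally and kept alive until a recorded time after birth. In WT, birth thus cannot be told apart from age in the step from 120 days to term. How the CF term animals were delivered is not stated in the methods, so at term birth and the time after it cannot be told apart from genotype. CF animals were CFTR-/-, made by nuclear transfer from 1 male fetal fibroblast line edited in *CFTR* exon 2, so genotype cannot be told apart from cloning or from the origin of that line. No treatment was compared. By the study's methods, ewes of both genotypes were synchronized with cloprostenol, the recipients of the CF embryos by another protocol that also used vaginal sponges, and this too cannot be told apart from genotype. By their labels the pair of WT replicates at 100 days came from a single animal, and they were kept as 2 libraries. One animal label is also shared by replicate 2 of WT at 65 days and replicate 2 of CF at 100 days. Nothing else in the labels says that replicates came from separate pregnancies, so p-values measure the spread between these libraries.

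Complement is a cascade of proteins in blood and tissue fluid that marks microbes and dying cells. C1q, built from the A, B and C chains, starts the classical pathway by binding antibody or cell debris, C4 and C3 are cleaved and attach to the surface, and factors B and D drive the alternative pathway that amplifies C3 cleavage. Factor I cuts C3b and C4b and so stops the cascade, and C7 joins the terminal complex that inserts into membranes. Liver makes most of the circulating proteins, macrophages are the main source of C1q, and lung epithelium produces C3 and other components locally.

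The genes lie on 5 chromosomes of the Oar_v4.0 genome. The C1q genes form a cluster on the minus strand of chromosome 2, with C1QB at chr2:243049596-243056600, C1QC at chr2:243064570-243069044 and C1QA at chr2:243073479-243076484. LOC101123672 at chr20:26412306-26427047 and CFB at chr20:26454794-26461216, both on the minus strand, lie close together on chromosome 20. C3 at chr5:15367670-15401347 and CFD at chr5:40735879-40738461 are on the plus strand of chromosome 5. CFI is on the plus strand at chr6:15658614-15702727 and C7 on the minus strand at chr16:33459612-33547717. No exon base of a member was shared with another gene of the tables, with an overlap of 0 bp for each of the 9 members. Sheep C4 belongs to a family of near-identical copies, so reads of LOC101123672 may be split with such copies and its level is uncertain. The primers with which the study assayed C4A by RT-qPCR are shown because they define the transcript it gave that name to. They are 20 bases each and were not placed on the genome here.
C4A forward primer: gacagtagcacctggctcac
C4A reverse primer: ggataacaggacaggggtcg

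Normalized read counts are given as counts per 1000000 reads (CPM) after TMM scaling over the 40 libraries. A gene is called a DEG where edgeR's quasi-likelihood test gave a Benjamini-Hochberg adjusted p up to 0.001 and its log2 fold change was at least 0.58 either way. These limits are those of the study's methods, but the calls are not the study's. From 100 to 120 days it reported many more DEGs in CF distal lung, C4A among them. It also reported C3 as upregulated in CF proximal lung at this step. Where the adjusted p was 0.05 or less with the same fold change, genes are said to pass the wider limit, and "rose" or "fell" is used for either. Each fit was repeated with 1 library left out at a time, 10 fits for a course and 20 for a region, and where some of these leave-one-out fits did not pass, the number that did or the adjusted p without the library that raised it most is given. The first count of members in a comparison is set beside the percentage of all tested genes that passed the same limits. Counted reads numbered 24670355 to 43700012 in WT and 85773994 to 103139483 in CF libraries of 65 to 120 days, and 115937437 to 126749480 in WT and 117316905 to 119451372 in CF libraries of term. *CFTR* was at 9.58 to 43.8 CPM (median 25.9) in WT and 3.65 to 34.9 CPM (median 16.5) in CF libraries over all ages, and counts over the whole gene do not by themselves show an edit in exon 2. The source is labeled as epithelial tissue, while the sum of 7 fibroblast markers was 1620 to 16900 CPM against 423 to 1710 CPM for 5 epithelial markers. Replicates differed by more than sampling noise, most so in CF proximal lung at 120 days, where a chi-square per degree of freedom of 2120 compares with 7.58 to 734 elsewhere. In that pair the airway secretory markers summed to 162 CPM in replicate 1 and 3970 CPM in replicate 2, and results that rest on it are also given without replicate 2.

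Per kilobase of counted exon, CFI had the highest median over the 40 libraries, at 59.7 CPM per kb. The C1q chains followed at 24.9 for C1QC, 20.2 for C1QB and 20 for C1QA, then C3 at 15.7 CPM per kb. CFD, CFB, LOC101123672 and C7 were lower, with medians of 9.32, 4.08, 3.59 and 1.30 CPM per kb. Ranked over the 20 group means, the 4 term groups were the 4 highest for the C1q chains, CFD and C7. For C3 and CFB 3 of the 4 highest were term groups, for LOC101123672 1 was, and for CFI none (0) was. Neighbors in these rankings mostly overlapped in their libraries, in 12 of 19 neighboring pairs for CFI to 17 of 19 for CFD and LOC101123672.

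**Figure D1:**
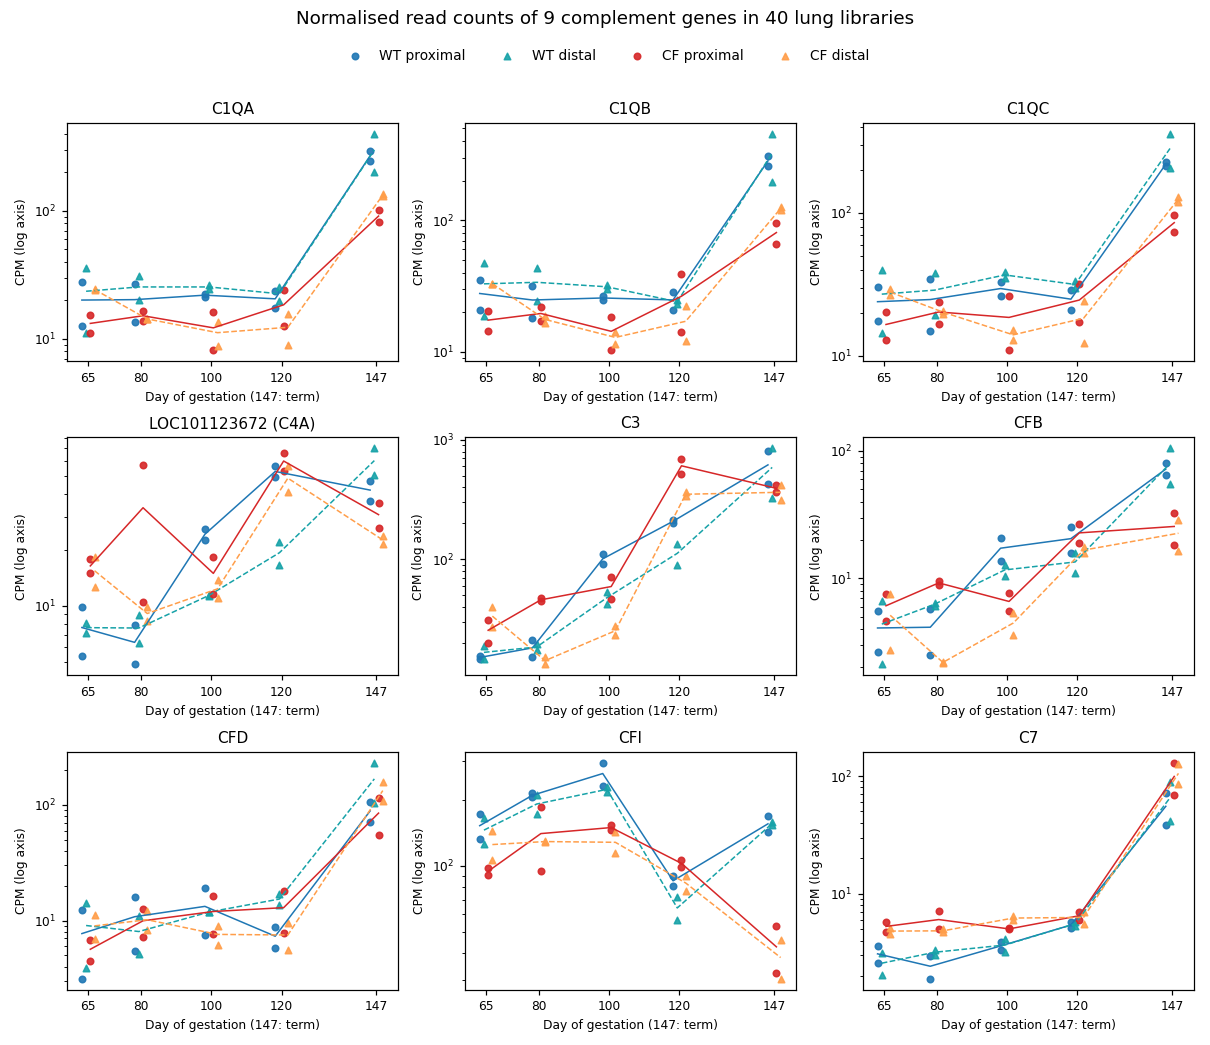
CPM (log axis) of the 9 complement genes against day of gestation, with day 147 standing for term. Each point is 1 library, lines join the means of 2 libraries, color gives genotype and region, and circles are proximal and triangles distal lung. C1QA, C1QB, C1QC, CFD and C7 are low to 120 days and high at term, C3 runs from 13.1 to 852 CPM, and CFI at term separates WT (142 to 169 CPM) from CF (30.4 to 53.0 CPM).

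Expression of the complement genes changed with gestational age in WT lung and in CF distal lung. Tested over all time points together, 8 members varied in WT proximal lung (background 10.6% of genes), 9 in WT distal lung (7.48%) and 7 in CF distal lung (3.59%) at an adjusted p of 0.001 or less. In CF proximal lung none (0 of 9) passed that limit (0.0254%), and 5 of 9, namely C1QA, C3, CFB, CFD and C7, had an adjusted p of 0.05 or less (5.36%). With 1 library left out the numbers at 0.001 were 5 to 8 in WT proximal, 3 to 9 in WT distal, 2 to 6 in CF distal and 0 to 2 in CF proximal lung. Without replicate 2 of 120 days, 2 of 9 members passed 0.001 in CF proximal lung, beside 0.321% of genes in that fit. With the WT day 100 libraries of a region summed, 3 of 9 members passed 0.001 in WT distal lung, beside 2.13% of genes in that fit. Between 65 and 80 days and between 80 and 100 days no member, and no gene at all, was a DEG in any of the 4 courses (0%). At the wider limit C3 and LOC101123672 rose from 80 to 100 days in WT proximal lung (1.87%). C3 went from 15 and 21.1 CPM to 111 and 90.5 CPM there, a log2 fold change of 2.46 ± 0.286 (SE, adjusted p = 0.00506, and 0.0571 without replicate 1 of 80 days). LOC101123672 went from 7.90 and 4.85 CPM to 25.9 and 22.6 CPM (1.91 ± 0.317, 0.0204), which passed in 6 of 10 leave-one-out fits, with an adjusted p of 0.128 without replicate 2 of 80 days, and not with the WT day 100 libraries summed.

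The 3 C1q chains were at 8.17 to 47 CPM until 120 days and rose at term in WT and in CF distal lung. In WT proximal lung C1QA was at 23.6 and 17.5 CPM at 120 days and at 246 and 294 CPM at term. In WT distal lung it went from 25.3 and 19.7 CPM to 200 and 401 CPM. C1QA in CF distal lung went from 9.02 and 15.6 CPM to 136 and 130 CPM, and in CF proximal lung from 12.7 and 24.2 CPM to 81.4 and 101 CPM. No term library overlapped with a 120 day library in any of these courses. The log2 fold change was 3.72 ± 0.419 (SE, adjusted p = 5.99e-04) in WT proximal, 3.73 ± 0.552 (0.00273) in WT distal and 3.44 ± 0.298 (5.66e-04) in CF distal lung. In CF proximal lung it was 2.28 ± 0.440, which did not pass the wider limit (adjusted p = 0.0793). C1QB changed by a log2 fold change of 3.51 in WT proximal, 3.75 in WT distal, 2.85 in CF distal and 1.57 in CF proximal lung, and C1QC by 3.13, 3.15, 2.77 and 1.76 in the same order. With CF proximal lung as the exception, all of these passed the wider limit, and C1QA and C1QB were DEGs in WT proximal and CF distal lung.

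The chains kept close proportions. Of the summed CPM per kb of the 3 chains, C1QA held 26.2% to 38.3%, C1QB 27.7% to 39.8% and C1QC 28.1% to 44.1% over the 40 libraries. Between pairs of chains, Pearson's r of log2 CPM over the 40 libraries was 0.984 to 0.991, as a description of libraries that share depth and the rise at term.

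At term all 4 WT libraries were above all 4 CF libraries for each C1q chain, as they were for 16.1% of all genes. C1QA was at 200 to 401 CPM in WT and 81.4 to 136 CPM in CF, C1QB at 194 to 455 CPM and 66.0 to 126 CPM, and C1QC at 207 to 357 CPM and 73.5 to 130 CPM. At term itself C1QB passed the wider limit, with a log2 fold change of CF against WT of -1.81 ± 0.449 (SE, adjusted p = 0.0297) in proximal and -1.38 ± 0.431 (0.0442) in distal lung. Without WT distal term replicate 2 the distal value was -0.66 (adjusted p = 0.356), and without WT proximal term replicate 2 the proximal adjusted p was 0.168. It passed in 9 of 20 distal and 16 of 20 proximal leave-one-out fits, and not in distal lung with the WT day 100 libraries summed. C1QA and C1QC were past the fold change but had adjusted p-values of 0.0525 to 0.113 at term. Averaged over the 5 time points, CF was below WT in distal lung by a log2 fold change of -0.80 ± 0.201 for C1QA (adjusted p = 0.00738), -0.82 ± 0.192 for C1QB (0.00486) and -0.76 ± 0.191 for C1QC (0.00737), and leaving out any 1 library kept each at 0.05 or less. In proximal lung C1QA at -0.72 ± 0.195 (adjusted p = 0.0178) and C1QB at -0.72 ± 0.197 (0.0190) passed the wider limit, while C1QC at -0.57 ± 0.210 (0.0654) did not. Without CF proximal replicate 2 of 120 days these were -0.84 for C1QA (0.00473) and -0.91 for C1QB (0.00126). In bulk tissue, fewer cells of a type and less RNA per cell cannot be told apart.

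Macrophage markers were higher at term, as the C1q chains were. Pearson's r of each chain with the log2 marker sum was 0.865 to 0.901 over 40 libraries and 0.0963 to 0.310 over the 32 libraries before term, as a description. Other lists came close, so r does not single out macrophages. It was 0.853 to 0.865 and before term 0.356 to 0.462 with neutrophil markers. With epithelial markers r was 0.829 to 0.851 and 0.152 to 0.303. Of 10 macrophage markers 9 were in the tables, and their sum was 54.7 to 108 CPM in WT and 55.2 to 116 CPM in CF libraries before term. At term it was 480 to 1030 CPM in WT and 113 to 182 CPM in CF. From 120 days to term 8 of 9 markers rose at the wider limit in WT proximal (20.1% of genes) and in WT distal lung (22.3%). In CF 7 of 9 did in distal lung (22.9%) and 0 of 9 in proximal lung (0.356%). All 9 of 9 were still above 0 in CF proximal lung, with a median log2 fold change of 1.90. The medians were 3.38 in WT proximal, 2.75 in WT distal and 2.54 in CF distal lung. At term 6 of 9 were lower in CF than WT in proximal (6.08% of genes) and 4 of 9 in distal lung (14.4%). Among defining markers MARCO had no read in 20 of 40 libraries, ADGRE1 in 26 and CD5L in 29, and CD68, CSF1R and MRC1 had reads in every library. The sum of the C1q chains per unit of the marker sum was 0.564 to 1.70 in WT and 0.426 to 1.39 in CF before term, and 0.819 to 1.25 in WT and 1.70 to 2.75 in CF at term. The genotypes did not overlap in this ratio at term, but a sum in CPM rests on a few abundant markers, MARCO alone reaching 494 CPM. By the median of the 9 markers CF was at -1.83 against WT in proximal and -1.32 in distal lung at term (log2), beside -1.36 to -1.81 and -1.15 to -1.38 for the C1q chains. The part of macrophage number in the C1q differences was not tested.

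**Figure D2:**
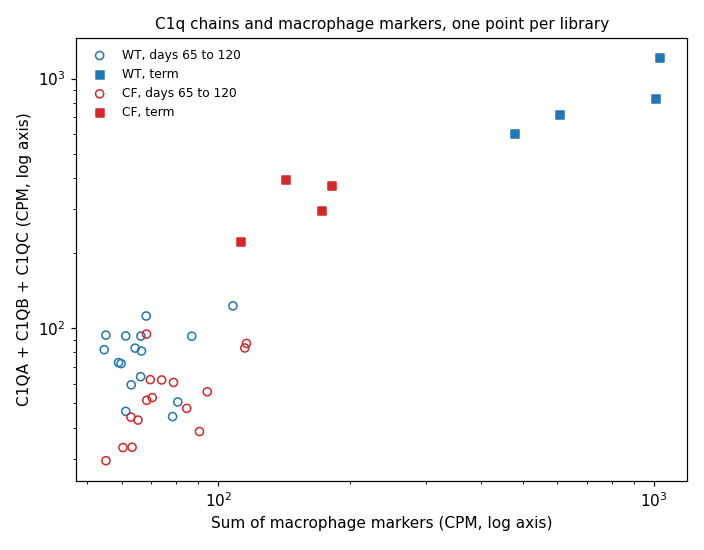
Sum of C1QA, C1QB and C1QC (CPM, log axis) against the sum of 9 macrophage markers (CPM, log axis), 1 point per library. Open circles are 65 to 120 days and filled squares term, in blue for WT and red for CF. WT term libraries stand at 480 to 1030 CPM of markers and CF term libraries at 113 to 182 CPM, above the libraries before term in C1q.

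C3, the component on which all pathways converge, rose between 100 and 120 days in CF lung. Its CF distal level was 27.3 and 23.0 CPM at 100 days and 365 and 336 CPM at 120 days. In WT distal lung it was at 41.8 and 53.4 CPM and then at 89.0 and 135 CPM. The libraries of the 2 days did not overlap in either genotype. C3 was 1 of the 2 DEGs of this step in CF distal lung (0.0103% of genes), with a log2 fold change of 3.83 ± 0.258 (SE, adjusted p = 9.87e-04), a 14.2-fold increase. Leaving out any 1 library kept it between 3.70 and 3.94, but without 1 library of 100 or 120 days the adjusted p was 0.00833 to 0.0392. In CF proximal lung C3 went from 46.6 and 71.4 CPM to 520 and 694 CPM. The log2 fold change there was 3.39 ± 0.349 (adjusted p = 0.0429), and 3.16 (0.0443) without replicate 2 of 120 days, and it passed the wider limit without only 2 of the 10 libraries, the highest adjusted p being 0.565 without replicate 1 of 100 days. In WT the changes were 1.06 ± 0.270 in proximal (adjusted p = 0.0783) and 1.24 ± 0.403 in distal lung (0.154). The difference between genotypes in this step was 2.59 ± 0.490 in distal and 2.32 ± 0.449 in proximal lung (log2, CF minus WT), neither of which passed a limit (adjusted p = 0.325 and 1), and no gene did (0% of genes in either region at either limit).

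LOC101123672, the C4 gene of the classical and lectin pathways, and CFB, the protease of the alternative C3 convertase, were followed over the same step. In CF distal lung LOC101123672 went from 11 and 13.7 CPM to 40.8 and 56.2 CPM and rose at the wider limit, by a log2 fold change of 1.99 ± 0.267 (SE, adjusted p = 0.0172). It passed in 7 of 10 leave-one-out fits, with an adjusted p of 0.239 without replicate 1 of 100 days. In WT distal lung it was at 11.3 and 11.5 CPM and then 22.1 and 16.5 CPM, a log2 fold change of 0.76 ± 0.240 (0.144). In WT proximal lung it went from 25.9 and 22.6 CPM to 49.2 and 56.2 CPM (1.14 ± 0.301). In CF proximal lung it went from 11.6 and 18.3 CPM to 53.3 and 66.6 CPM (2.03 ± 0.665). Neither passed the wider limit. The genotypes overlapped in proximal lung at 120 days, with a log2 fold change of CF against WT of 0.185 ± 0.544. CFB in CF distal lung was at 5.30 and 3.62 CPM and then 17.5 and 15.8 CPM, a log2 fold change of 1.93 ± 0.468 that did not pass (adjusted p = 0.103). The CFB libraries of the 2 days did not overlap in CF distal lung, and in WT distal lung, at 12.8 and 10.5 CPM and then 11 and 15.9 CPM, they did. In proximal lung CFB changed by a log2 fold change of 1.81 ± 0.426 in CF and 0.268 ± 0.419 in WT, and neither passed. The wider limit was passed from 100 to 120 days by 2 of 9 members in CF distal lung (0.928% of genes), by C3 alone in CF proximal lung (0.0203%) and by CFI alone in WT proximal (2.57%) and WT distal lung (2.44%). Among DEGs of this step there was no member in WT proximal (0.0770%), WT distal (0.0274%) or CF proximal lung (0%).

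Alveolar type 2 markers were read over the same step. The sum of 7 alveolar type 2 markers went from 1980 and 2240 CPM to 5850 and 8400 CPM in CF distal lung, where 3 of 7 passed the wider limit, and from 2330 and 2300 CPM to 2780 and 3430 CPM in WT distal lung, also with 3 of 7. At 120 days 5 of 7 were higher in CF than in WT distal lung at the wider limit. Pearson's r of the log2 sum with log2 C3 was 0.898 over 40 libraries and 0.832 over the libraries before term, as a description. Over the same libraries and not this step alone, r with the airway secretory sum was 0.906 and 0.847, with endothelium 0.754 and 0.812 and with neutrophil markers 0.804 and 0.750. SFTPA1 had no read in 1 of 40 libraries and the other 6 had reads in every library. The sum of 7 hepatocyte markers, of 8 listed, was 1.07 to 30.2 CPM over all libraries, with ALB at most at 23.4 CPM and APOA2 without a read in 31 of 40 libraries. None of the hepatocyte markers passed the wider limit from 100 to 120 days (0 of 4 tested in CF distal lung). Before term the neutrophil markers summed to at most 21.1 CPM in WT and 27.9 CPM in CF. The part of these cells in the C3 values was not tested.

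From 120 days to term C3 and CFB rose in both WT regions and LOC101123672 in WT distal lung, and of these genes none rose in CF. C3 rose in WT proximal lung from 213 and 203 CPM to 429 and 807 CPM (log2 fold change 1.57 ± 0.272, SE, adjusted p = 0.00384) and in WT distal lung from 89.0 and 135 CPM to 325 and 852 CPM (2.38 ± 0.415, 0.00510). In CF distal libraries it was at 365 and 336 CPM and then at 415 and 313 CPM, a log2 fold change of 0.05 ± 0.230. In CF proximal lung it was at 520 and 694 CPM and then at 421 and 365 CPM, a log2 fold change of -0.66 ± 0.320 (adjusted p = 0.380). The CF values thus overlapped between the 2 ages in distal lung and were lower at term in proximal lung. LOC101123672 rose in WT distal lung, from 22.1 and 16.5 CPM to 50.3 and 70.2 CPM (1.63 ± 0.241, 0.00274), and fell in CF distal lung, from 40.8 and 56.2 CPM to 21.6 and 23.6 CPM (-1.10 ± 0.261, 0.0201, passing in 8 of 10 leave-one-out fits and at 0.0722 without CF replicate 2 of term). CFB went in WT proximal lung from 25.2 and 15.8 CPM to 64.2 and 79.9 CPM and in WT distal lung from 11 and 15.9 CPM to 54.6 and 105 CPM. It rose by 1.81 ± 0.425 (0.0147) and 2.55 ± 0.492 (0.00735), with adjusted p-values of 0.112 without WT proximal replicate 2 and 0.0652 without WT distal replicate 1 of 120 days, while its log2 fold changes in CF were 0.13 and 0.43.

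CFD rose at term in WT and in CF distal lung. CFD encodes factor D, the protease that cleaves factor B and is made abundantly by fat cells. It was at 5.56 and 9.44 CPM at 120 days and at 108 and 158 CPM at term in CF distal lung (log2 fold change 4.15 ± 0.393, SE, adjusted p = 7.44e-04). In WT distal lung it went from 17.1 and 13.6 CPM to 104 and 232 CPM (3.45 ± 0.622, 0.00578), and in WT proximal lung from 8.84 and 5.80 CPM to 71.4 and 106 CPM (3.60 ± 0.746, 0.00857, and 0.0763 without replicate 2 of 120 days). Term was above 120 days in every one of these libraries. In CF proximal lung CFD went from 7.76 and 18.1 CPM to 54.9 and 115 CPM, which did not pass (2.68 ± 0.613, adjusted p = 0.121). The adipocyte markers ADIPOQ, PLIN1 and CIDEC summed to 1.15 to 1.73 CPM in WT and 1.84 to 2.38 CPM in CF term libraries, and LEP, the other marker on the list, had no read in 38 of 40 libraries. Over the 40 libraries Pearson's r of CFD was 0.0287 with the adipocyte sum, as a description. With neutrophil, epithelial and macrophage markers it was 0.857, 0.835 and 0.775, and before term 0.407, 0.376 and -0.122. The part of these cells in the CFD values was not tested.

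C7 rose from 120 days to term in all 4 courses. It was at 5.08 to 7.05 CPM in the 8 libraries of 120 days and at 38.4 to 130 CPM in the 8 term libraries. By course the log2 fold change was 3.35 ± 0.357 (SE, adjusted p = 4.47e-04) in WT proximal, 3.55 ± 0.386 (8.43e-04) in WT distal, 3.90 ± 0.402 (0.0235) in CF proximal and 4.07 ± 0.271 (2.62e-04) in CF distal lung. It was a DEG in all but CF proximal lung, where 3 of 10 leave-one-out fits passed the wider limit and the adjusted p was 0.164 without replicate 2 of term and 0.0153 without replicate 2 of 120 days. C7 was the 1 member that passed the wider limit as higher in CF on average over the 5 time points, by a log2 fold change of 0.74 ± 0.164 in proximal (adjusted p = 0.00633, and 0.70 without the CF library that stands apart) and 0.63 ± 0.141 in distal lung (0.00357). Before term it was at 1.89 to 5.76 CPM in WT and 4.53 to 7.10 CPM in CF. Before term 5 smooth muscle markers, none at 0 in any library, summed to 282 to 756 CPM in WT and 620 to 1500 CPM in CF, and the adipocyte markers to 0.302 to 1.47 CPM and 2.13 to 9.87 CPM. Pearson's r of C7 with these sums was 0.764 and 0.660 over the 32 libraries before term, as a description, and -0.0541 and 0.200 over all 40. At term the smooth muscle sum had the other order, with 577 to 958 CPM in WT and 271 to 540 CPM in CF. C7 at term was at 0.845 ± 0.360 in proximal and 0.714 ± 0.305 in distal lung (log2, CF against WT). Over all 40 libraries r of C7 was 0.827 with neutrophil and 0.817 with airway secretory markers, and before term 0.322 and 0.505. The part of these cells in the C7 difference was not tested.

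CFI, the protease that inactivates C3b and C4b, had its low point at 120 days in WT and at term in CF. In WT proximal lung it was at 296 and 232 CPM at 100 days, 89.5 and 81.2 CPM at 120 days and 142 and 169 CPM at term. In WT distal lung it was at 229 and 218 CPM, 56.5 and 71.8 CPM, and 154 and 158 CPM at these ages. It fell from 100 to 120 days, by 1.61 ± 0.171 (log2, SE, adjusted p = 0.00353) in proximal and by 1.80 ± 0.177 (0.00297) in distal lung, and rose to term by 0.86 ± 0.168 (0.00646) and 1.26 ± 0.174 (0.00218). Without WT distal replicate 1 of 100 days the distal fall had an adjusted p of 0.0542, and without WT proximal replicate 2 of 120 days the proximal rise had 0.0568. With the WT day 100 libraries summed, the change of CFI from 100 to 120 days in WT distal lung did not pass the wider limit. CFI in CF distal lung was at 142 and 114 CPM, then 90.0 and 76.8 CPM, then 30.4 and 45.7 CPM, and in CF proximal lung at 153 and 146 CPM, then 99.1 and 106 CPM, then 32.2 and 53.0 CPM. The change to term in CF was -1.14 ± 0.259 in distal lung (adjusted p = 0.0177, and 0.0817 without replicate 1 of 120 days) and -1.30 ± 0.370 in proximal lung (0.173). CFI thus had its highest group mean in WT proximal lung at 100 days and its lowest in CF distal lung at term.

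**Figure D3:**
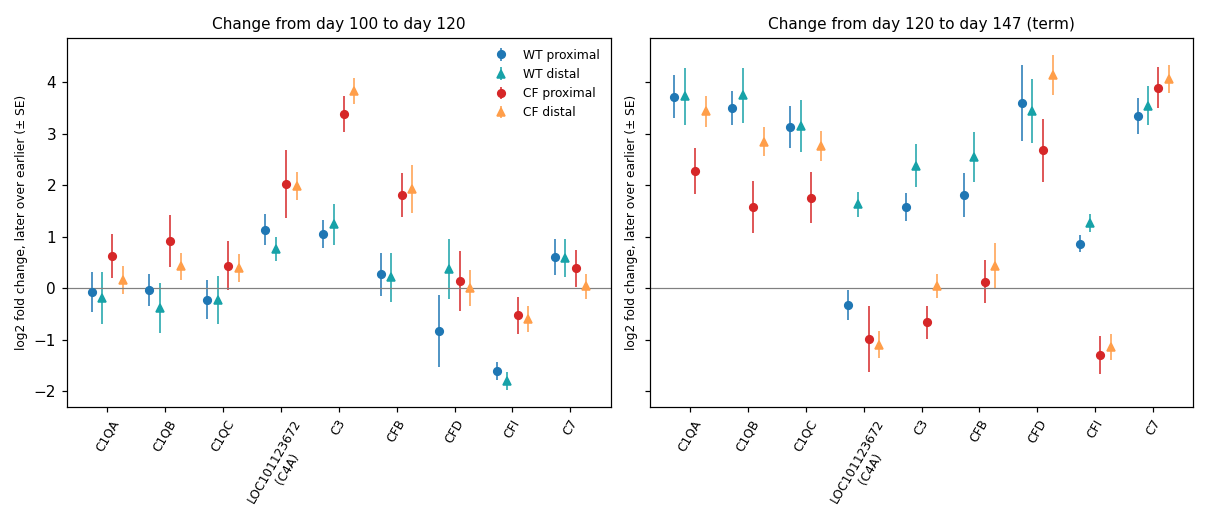
Log2 fold change (later over earlier, points, with bars of 1 SE from the edgeR fits) of each complement gene from 100 to 120 days (left) and from 120 days to term (right) in the 4 courses. Color gives genotype and region, with circles for proximal and triangles for distal lung. C3 has its largest change in CF on the left (3.39 and 3.83) and in WT on the right (1.57 in proximal and 2.38 in distal lung), and CFI is above 0 in WT and below 0 in CF on the right.

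Counted together, 3 of 9 members were DEGs from 120 days to term in WT proximal lung (2.14% of genes), 1 in WT distal lung (1.15%), 4 in CF distal lung (0.338%) and 0 in CF proximal lung (0%). All of these rose. The wider limit was passed by 8 of 9 members in WT proximal lung (20.1% of genes) and by 9 of 9 in WT distal lung (22.3%), all higher at term. Of the members in CF distal lung 5 rose and 2 fell (22.9%), and in CF proximal lung C7 alone rose (0.356%). The median log2 fold change of the 9 members was 3.13 in WT proximal, 3.15 in WT distal, 2.77 in CF distal and 1.57 in CF proximal lung, beside medians of 0.06, 0.04, -0.06 and -0.13 over all genes tested. With 1 library left out, the 8 DEG calls kept an adjusted p of 0.001 or less in 0 to 7 of 10 fits each and of 0.05 or less in all of them. With the WT day 100 libraries, which share an animal label, summed to 1, the DEGs of this step were 1 member in WT proximal lung (C1QB, 1.19% of genes in that fit) and 0 in WT distal lung (0.126%).

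CF was set against WT at each time point to ask when complement expression differs between genotypes. In proximal lung no member was a DEG at 65, 80, 100 or 120 days, nor was any gene (0%). In distal lung no member was a DEG at 65 days (0.0797% of genes), 80 days (0.164%), 100 days (0.149%) or 120 days (0.0896%). At 120 days C3 was higher in CF at the wider limit in both regions, by a log2 fold change of 1.54 ± 0.320 (SE, adjusted p = 0.0388) in proximal lung (1.35% of genes) and 1.66 ± 0.349 (0.0155) in distal lung (4.22%). The proximal difference passed in 7 of 20 leave-one-out fits. It was 1.31 (0.0804) without CF proximal replicate 2 of 120 days and its adjusted p without WT replicate 2 of that day was 0.315. The distal difference passed in 17 of 20, with an adjusted p of 0.200 without WT replicate 1 of 120 days. LOC101123672 was also higher in CF distal lung at 120 days, by 1.34 ± 0.264 (0.0113, and 0.132 without WT replicate 2 of that day), and at 65 days, by 1.02 ± 0.264 (0.0378, passing in 11 of 20 leave-one-out fits and at 0.208 without CF replicate 1 of that day), where 5.05% of genes passed. With the WT day 100 libraries summed, neither the proximal C3 difference at 120 days nor the LOC101123672 difference at 65 days passed.

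At term the members that passed a limit were all lower in CF. Birth and the time after it cannot be told apart from genotype at this age. The sum of 5 epithelial markers was 1490 to 1710 CPM in WT and 710 to 1310 CPM in CF term libraries. The part of these cells in the differences at term was not tested. CFI was lower in CF, a DEG in distal lung with a log2 fold change of -2.01 ± 0.236 (SE, adjusted p = 1.82e-04), and -1.87 ± 0.299 (0.00313) in proximal lung. The distal call held without any 1 library (adjusted p at most 8.26e-04). In distal lung LOC101123672 at -1.39 ± 0.263 (0.00353) and CFB at -1.79 ± 0.498 (0.0263, and 0.169 without WT replicate 2) also passed the wider limit. In all, 1 of 9 members was a DEG at term in distal lung (1.25% of genes) and 0 in proximal lung (0.339%), and 4 of 9 and 2 of 9 passed the wider limit (14.4% and 6.08%). All 4 WT libraries were above all 4 CF libraries at term for 6 of 9 members, the C1q chains, LOC101123672, CFB and CFI, as they were for 16.1% of all genes. The genotypes overlapped for C3, CFD and C7. C3 at term was at 325 to 852 CPM in WT and 313 to 421 CPM in CF.

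Averaged over the 5 time points, CFI was the 1 DEG among members in distal lung (5.94% of genes), at -0.65 ± 0.102 (adjusted p = 3.05e-04), and none (0 of 9) was in proximal lung (2.61%), where CFI was at -0.74 ± 0.130 (0.00156), and at -0.76 (0.00119) without CF replicate 2 of 120 days. The wider limit was passed by 6 of 9 members in distal lung (15.2% of genes), namely the C1q chains, CFB and CFI, lower in CF, and C7, higher in CF. It was passed by 4 of 9 in proximal lung (13.7%), namely C1QA, C1QB and CFI, lower, and C7, higher. The median of the members was -0.65 in distal and -0.20 in proximal lung, beside 0.01 and 0.04 over all genes. CFD gave 0.01 ± 0.315 in proximal and -0.34 ± 0.238 in distal lung.

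**Figure D4:**
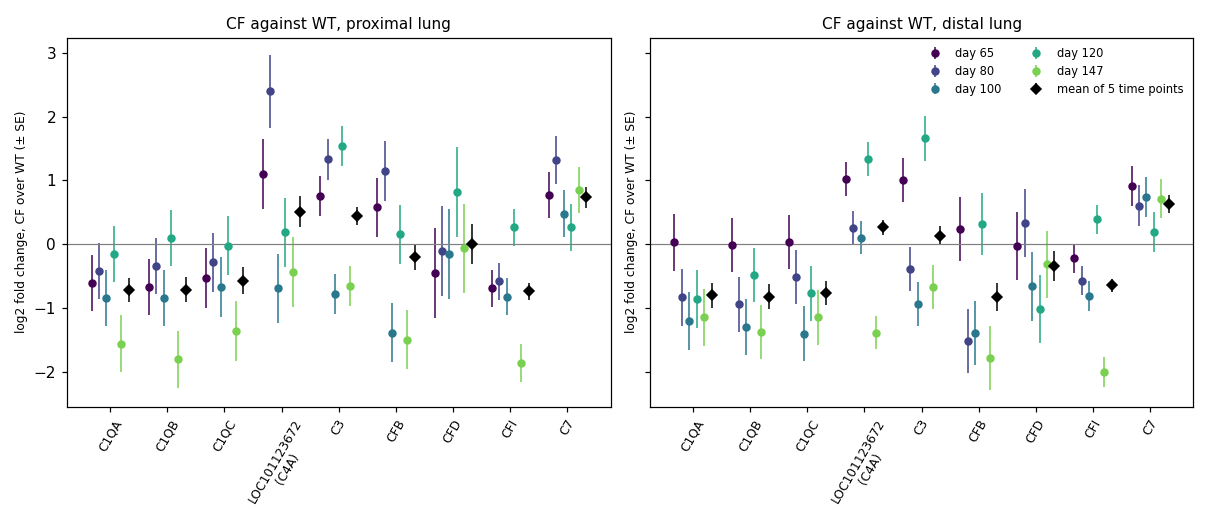
Log2 fold change of CF over WT (points, with bars of 1 SE from the edgeR fits) for each complement gene in proximal (left) and distal lung (right). Colored circles are the 5 days, day 147 being term, and black diamonds their mean. CFI at term lies at -1.87 and -2.01, C3 is above 0 at 120 days and below 0 at term, and C7 is above 0 at every day.

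The change from 120 days to term was compared between genotypes directly. In distal lung it was lower in CF than in WT at the wider limit for CFI, by -2.40 ± 0.326 (log2, SE, adjusted p = 0.00111), LOC101123672, by -2.73 ± 0.372 (0.00113), and C3, by -2.33 ± 0.487 (0.0103, and 0.0565 without WT replicate 1 of 120 days). These are 3 of 9 members (9.31% of genes), and no member was a DEG (0.189%). In proximal lung CFI at -2.13 ± 0.414 (0.0204) and C3 at -2.20 ± 0.448 (0.0253) passed, 2 of 9 members (1.78% of genes) with no DEG (0.0442%), and their adjusted p was 0.127 and 0.139 without WT replicate 2 of 120 days. Without CF replicate 2 of 120 days the C3 value was -1.99 (0.0267) and the CFI value -2.09 (0.0181). They passed in 17 and 16 of 20 leave-one-out fits. C7, CFD, CFB and the C1q chains did not pass in either region, CFB being at -2.11 ± 0.695 in distal lung (0.0696). For C7 the difference was 0.58 ± 0.510 in proximal and 0.52 ± 0.437 in distal lung.

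Proximal and distal lung of the same animals were compared over all ages. With the animal as a block, no member was a DEG in WT (0.0107% of genes) or CF (0%), and none passed the wider limit. In CF, C3 was at 0.68 ± 0.101 and CFB at 0.72 ± 0.135 (log2, proximal over distal, SE), with adjusted p-values of 0.331 and 0.631 by edgeR, while DESeq2 called both as DEGs. At 80 days CFB in CF was at 9.55 and 8.88 CPM in proximal and 2.21 and 2.17 CPM in distal lung, with C3 at 47.1 and 44.2 CPM and 13.1 and 15.1 CPM. LOC101123672 in WT at 120 days was at 49.2 and 56.2 CPM in proximal and 22.1 and 16.5 CPM in distal lung. These ages were chosen after their values were seen. At term the order for LOC101123672 in WT was the other one, with 36.7 and 47 CPM in proximal and 50.3 and 70.2 CPM in distal lung, and C3 and CFB in CF overlapped between regions at 65 days and at term. Single ages were not tested. The WT values of C3 and LOC101123672 were 0.40 ± 0.0869 and 0.34 ± 0.0825.

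Other genes of the complement pathway were read from lists of initiators, terminal components, regulators and receptors, of which 28 to 30 were tested in a comparison. From 120 days to term 8 of 28 were DEGs in WT proximal and 4 of 28 in WT distal lung, all higher at term, beside 2.14% and 1.15% of all genes. In CF proximal and CF distal lung 0 of 29 were, beside 0% and 0.338% of all genes, so these counts are near the share over all genes. At the wider limit 16 rose and 2 fell in WT proximal, 19 rose and 2 fell in WT distal and 8 rose and 4 fell in CF distal lung, while 0 of 29 passed in CF proximal lung, beside 20.1%, 22.3%, 22.9% and 0.356% of all genes in that order. FCN1, a ficolin that starts the lectin pathway, went in WT proximal lung from 0.499 and 0.332 CPM to 19 and 43.8 CPM (log2 fold change 6.24 ± 0.529, SE, adjusted p = 2.79e-04). CFP encodes properdin, which stabilizes the alternative convertase, and went from 2.44 and 1.35 CPM to 44.3 and 59.9 CPM (4.78 ± 0.445, 2.59e-04). ITGB2 and ITGAM, the chains of complement receptor 3 on myeloid cells, rose by 4.62 ± 0.317 (7.45e-05) and 4.97 ± 0.584 (7.05e-04). CR2, the receptor for C3 fragments on B cells, was at 0.294 and 0.276 CPM at 120 days and at 51.2 and 68.6 CPM at term in WT proximal lung, and at 2.30 and 5.38 CPM in CF proximal lung at term. Markers of neutrophils, which carry several of these receptors, summed to 57.4 to 376 CPM in WT and 12.1 to 157 CPM in CF term libraries, and 1 of 6 had no read in any WT term library. Their part, like that of the macrophage markers, was not tested.

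In WT distal lung ITGB2 (4.01 ± 0.415, SE, adjusted p = 6.58e-04), C5 (1.94 ± 0.201, 6.58e-04) and CD59 (1.18 ± 0.110, 4.46e-04) were the other DEGs of that step beside CR2. C5, the component from which the terminal complex starts, was at 66.1 and 60.9 CPM at 100 days, 13 and 20.9 CPM at 120 days and 64.5 and 67.3 CPM at term in WT distal lung, a low point at the same age as that of CFI. CD59, the membrane protein that blocks the terminal complex, was at 292 and 310 CPM at 120 days and 704 and 682 CPM at term. Over all time points 12 of 28 of these genes varied in WT proximal, 11 of 28 in WT distal, 5 of 29 in CF distal and 0 of 29 in CF proximal lung, beside 10.6%, 7.48%, 3.59% and 0.0254% of all genes.

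Between genotypes 2 of 30 other pathway genes were DEGs averaged over time points in distal lung, and 0 of 29 in proximal lung, beside 5.94% and 2.61% of all genes, which is near the share in distal lung. MASP2, a protease of the lectin pathway that cleaves C4, was higher in CF by 1.15 ± 0.115 (log2, SE, adjusted p = 6.60e-06). In distal lung at 100 days MASP2 was at 47.2 and 41.7 CPM in CF and at 17 and 15.7 CPM in WT. At term 11 of these genes were lower and 1 was higher in CF at the wider limit in each region, beside 6.08% of all genes in proximal and 14.4% in distal lung.

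For each member the 3 genes with the most similar pattern were found among 13701 genes by Pearson's r of log2 CPM over the 40 libraries, as a description of libraries that share age, genotype and depth. For all 3 C1q chains they were AIF1, CTSS and TNFAIP8L2, with r of 0.947 to 0.976. For LOC101123672 they were LOC101123419 (0.963), LOC101112891 (0.941) and ADAMTSL4 (0.872). LOC101123419 lies near it on chromosome 20 and LOC101112891 lies on an unplaced scaffold of Oar_v4.0, and in the RefSeq table of assembly ARS-UI_Ramb_v3.0 the 3 lie near each other on chromosome 20. For C3 they included LOC443475, on an unplaced scaffold, and TMCC3 (0.964 and 0.950), and for CFB LOC101105114, LOC101110371 and TPPP3 (0.933, 0.930 and 0.929). For CFD they were PSMB8, LGALS3 and ASL (0.935, 0.932 and 0.930), for C7 PSTPIP2, ALKBH5 and LGALS3 (0.935, 0.934 and 0.931), and for CFI KCNK1, STRBP and EPDR1 (0.845, 0.826 and 0.826). Among members C3 and CFB had an r of 0.906, C3 and LOC101123672 0.864 and C7 and CFD 0.893, while CFI had an r below 0 with every other member, from -0.549 with C7 to -0.127 with C1QB.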

How the data were processed

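Bulk RNA of 40 sheep lung libraries was measured. The authors sequenced 100 bp paired reads, aligned them to Oar_v4.0 with STAR, counted them per gene (featureCounts 1.6.3). The raw counts were deposited, neither normalized nor pooled. STAR is given as 2.7.0e_0320 in the methods and as 2.6 in the submitters' processing notes. The annotation release and the strand setting are not given in the sources used here. A table of CF columns, identical to the 20 CF columns used, was left out.

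Counts were analyzed in R 4.3.3 with edgeR 4.0.16 (filterByExpr at min.count 10 and min.total.count 15, TMM, glmQLFit with legacy dispersion, glmQLFTest, Benjamini-Hochberg over all genes tested). Each course of 10 libraries, each region of 20 and each genotype of 20, the last with the animal as a block, was fitted separately. Median and SE values come from these fits and CPM from TMM over 40 libraries (20779 genes). A replicate number stands for the same animal label in both regions of a genotype and day. It does not pair libraries across days or genotypes, apart from the shared animal labels given at the start. The difference between replicates correlated from -0.094 to 0.626 between the regions of an animal pair. The fits were tested on simulated data with known changes.

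All 9 members, the other pathway genes that were DEGs (at most 5 a comparison) and the 3 genes most similar to each member are named. The ages at which C5 and MASP2 levels are given were chosen after they were seen. A few genes that this rule picks are not reported here. Members and lists were chosen with earlier results of these data known. Alternatives were RLE, DESeq2 1.42.0, no filter, an adjusted p of 0.05, the newer quasi-likelihood of edgeR with adjusted deviance, thinning of all libraries to 1 depth, each library left out (both libraries of an animal for the regions), WT day 100 libraries summed, the replicate block and 1 fit of 40 libraries. Day 50 and RT-qPCR were not analyzed here.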

Additional observations from a re-analysis of the deposited data

Results flagged for a closer look

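The change from 120 days to term differed between genotypes at an adjusted p of 0.05 or less (edgeR quasi-likelihood, CF minus WT on the log2 scale) for C3 (-2.20, adjusted p = 0.0253) and CFI (-2.13, 0.0204) in proximal lung and for LOC101123672 (-2.73, 0.00113), C3 (-2.33, 0.0103) and CFI (-2.40, 0.00111) in distal lung. None of these 5 differences reached 0.001.

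In 5 other cases both libraries of 1 group moved one way and both of the other the opposite way, and the difference was not tested. The share of all genes with such a pattern is not given here, so the number of cases says nothing particular to these members. LOC101123672 in WT went from 120 days to term by -0.33 in proximal and 1.63 in distal lung. C3 in CF went from 65 to 80 days by 0.86 in proximal and -1.21 in distal lung. CFB in CF went over the same days by 0.61 in proximal and -1.19 in distal lung, and from 80 to 100 days by -0.47 in proximal and 1.01 in distal lung. CFB in proximal lung went from 80 to 100 days by 2.03 in WT and -0.47 in CF. Of these 9 separate changes, the LOC101123672 rise in WT distal lung was the only one within an adjusted p of 0.05.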

How the results depend on the processing

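RLE, the newer quasi-likelihood and thinning to 1 depth left every count of DEG members within 1.5 times its value, and no member named at 0.05 changed direction under any alternative. Brackets give the share of all genes called over the same comparisons. With DESeq2 the count of DEG members between consecutive time points was 12 (4.52%) in place of 3 (0.554%) in WT proximal, 10 (4.43%) in place of 1 (0.294%) in WT distal and 4 (0.752%) in place of 0 (0%) in CF proximal lung. Over a course it was 7 (10.6%) in place of 0 (0.0254%) in CF proximal lung. CF against WT gave 4 (3.83%) in place of 1 (0.347%) in distal and 2 (1.53%) in place of 0 (0.0678%) in proximal lung at single time points, 6 (10.8%) in place of 1 and 2 (9.04%) in place of 0 averaged, and 3 (2.15%) and 2 (0.868%) in place of 0 for the difference in change. Between regions in CF it gave 2 (C3 and CFB, 0.0894%) in place of 0. In each of these comparisons DESeq2 also called more of all genes. At an adjusted p of 0.05 the counts for consecutive time points were 11 (6.13%), 10 (6.43%), 2 (0.0940%) and, in CF distal lung, 9 (5.97%) in place of 5 (0.0871%), with 5 (5.36%) for the CF proximal course. For CF against WT they were 7 (6.90%) and 3 (1.61%) at single time points, 6 (15.2%) and 4 (13.7%) averaged and 3 (4.65%) and 2 (0.890%) for the difference in change. One fit of 40 libraries gave 5 (0.599%), 6 (0.605%) and 2 (0.513%) for consecutive time points in WT proximal, WT distal and CF proximal lung and 7 (10.3%) for the CF proximal course. Without a filter the counts were 6 (0.967%) in WT proximal, 2 (0.474%) in WT distal lung and 2 (0.145%) for the distal difference in change. With the WT day 100 libraries summed they were 1 (0.299%) in WT proximal and 0 (0.0316%) in WT distal lung, and 3 (2.13%) in place of 9 (7.48%) for the WT distal course. The replicate block, which pairs libraries by number only (the replicate differences correlated from -0.415 to 0.616 between time points and -0.0875 to 0.242 between WT and CF of a day), gave 1 (0.285%), 0 (0.181%) and 3 (5.54%), and 2 (0.264%) for the distal difference in change. Leaving the animal block out of the region fits moved no count.

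With 1 library left out, DEG members between consecutive time points numbered 0 to 4 in WT proximal, 0 to 5 in WT distal, 0 in CF proximal and 0 to 2 in CF distal lung, and over a course 5 to 8, 3 to 9, 0 to 2 and 2 to 6. CF against WT gave 1 in distal and 0 in proximal lung at single time points in every such fit, 1 to 3 and 0 to 1 averaged, and 0 to 2 and 0 for the difference in change. Between regions it was 0 in WT and CF. With 2 libraries a group, a miss of a limit says little about the smaller changes, and WT libraries before term were the shallowest.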
